A study of Mus musculus with 16 samples.

Results

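The 9 genes described here encode complement components and receptors other than C1q. They are the proteases C1ra, C1s1 and C2, the central proteins C4b and C3, the alternative pathway protease Cfb, the inhibitor Serping1, and the receptors C3ar1 and C5ar1. They were found by symbol among the 29730 genes of the mouse count table, each matched by its Ensembl identifier to the GENCODE annotation of GRCm38. RNA was sequenced from the tibialis anterior, a lower leg muscle, of 16 male C57BL/6N mice aged 7 weeks. The 4 groups held 4 mice each. WT_PBS were wild-type mice given saline, and WT_ASO were wild-type mice given ASO1, an antisense oligonucleotide against Dnm2. KO_PBS were Bin1mck-/- mice given saline, and KO_ASO were Bin1mck-/- mice given ASO1. Bin1 encodes amphiphysin 2, a membrane-bending protein, and Dnm2 encodes dynamin 2, a GTPase that cuts membrane necks. The sources used here do not give the oligonucleotide's dose and schedule, the deleted part of Bin1 or the promoter behind the deletion.

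Complement is a cascade of blood and tissue proteins that tags and lyses targets and attracts leukocytes. In the classical pathway C1q binds its target and activates the proteases C1r and C1s, which cleave C4 and C2 into a convertase for C3. Factor B forms the alternative pathway's convertase, C1 inhibitor blocks C1r and C1s, and the fragments C3a and C5a act through G protein-coupled receptors carried mainly by myeloid cells. Liver makes most of the circulating components, while macrophages and fibroblasts make part of them within tissues.

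Between 27591900 and 40862854 reads were assigned to genes in each library, and log2 expression correlated within groups at r of 0.974 to 0.988. Bin1 was lower in KO_PBS than in WT_PBS by a log2 fold change of -3.46 ± 0.12 (SE, n = 4 a group). Dnm2 changed by -1.34 in KO_ASO against KO_PBS and by -1.13 in WT_ASO against WT_PBS. Muscle fibre markers summed to 104170 to 206430 counts per 1000000 reads (CPM) in every library, and hepatocyte markers to 1.55 to 3.56 CPM. The lymphocyte markers Cd3d and Ms4a1 and the neutrophil markers Camp and Ngp were at 0 in WT_ASO, and Camp also in WT_PBS. The library KO_PBS 4 stood apart in its group: its 15 macrophage markers summed to 377 CPM against 152 to 219 in the other 3 mice, and its 8 neutrophil markers to 9.34 against 1.33 to 2.23. Its adipocyte markers summed to 1794 CPM, within the 1458 to 2427 of the other 3 mice. The adipocyte markers' median log2 fold change in KO_PBS against WT_PBS fell from 0.74 to 0.16 without this library. It also held the highest value of its group for 7 of the 8 members that could be tested, and the members' values in KO_PBS against WT_PBS and KO_ASO against KO_PBS are also given without it. KO_ASO 4 was highest in its group for 6 of the 8, and its red blood cell markers summed to 424 CPM against 23.4 to 51.8 in the other 3 mice. The part of these cells in the members' values was not tested. WT_ASO 3, which also stood apart, is described with its comparison.

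Per kilobase, Serping1 was the most abundant member in saline-treated wild-type muscle at a mean of 17.0 RPKM (CPM divided by the exon length in kilobases). C3 followed at 8.14 and C1s1 at 7.70 RPKM, and these neighbours overlapped between mice. C1ra stood at 1.32, C4b at 0.445, C2 at 0.204, C5ar1 at 0.182 and C3ar1 at 0.145 RPKM, and Cfb was close to 0 at 0.0130. The ranges of C4b and C2 overlapped, as did those of C2, C5ar1 and C3ar1, so their order does not exceed the spread between mice. Serping1 made up 48.8% ± 4.16 (SD, n = 4) of the members' summed RPKM in WT_PBS and 53.5% ± 7.84 in KO_PBS. The receptors C3ar1 and C5ar1 together with C4b, C2 and Cfb each held under 3% of that sum in every group mean. The levels of the low members rest on few reads. In bulk tissue, more cells of a type and more RNA per cell cannot be told apart.

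In KO_PBS muscle, 5 of the 8 members tested were higher than in WT_PBS and 0 were lower (edgeR quasi-likelihood test, Benjamini-Hochberg adjusted P under 0.05). They were C1ra, C4b, Serping1, C3ar1 and C5ar1, among which the receptors differed most. Of all 14960 genes tested, 7.43% were called higher, 5.12% lower and 12.6% in either direction. The median log2 fold change of the 8 members was 0.67, and that of all genes was -0.01. In 3 of the 8 members (C1ra, Serping1 and C3ar1) every KO_PBS mouse lay above every WT_PBS mouse, which held for 10.5% of all genes. Without KO_PBS 4, only C3ar1 kept its call (1508 of all 15031 genes called), and the members' median was 0.50. Without WT_PBS 3 or WT_PBS 4 the count was 0 (9.64% and 7.15% of all genes called), with 5 members at an unadjusted edgeR P under 0.05 each time. With limma-voom only C1ra was called, where 18.0% of all genes were called, and with no filter on low counts only C1ra and C5ar1, where 4.92% were. A fit of the compared groups alone left C1ra, Serping1 and C5ar1, where 14.3% were. One with replicate number as a block left Serping1, C3ar1 and C5ar1, where 15.5% of all genes were called.

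**Figure D1:**
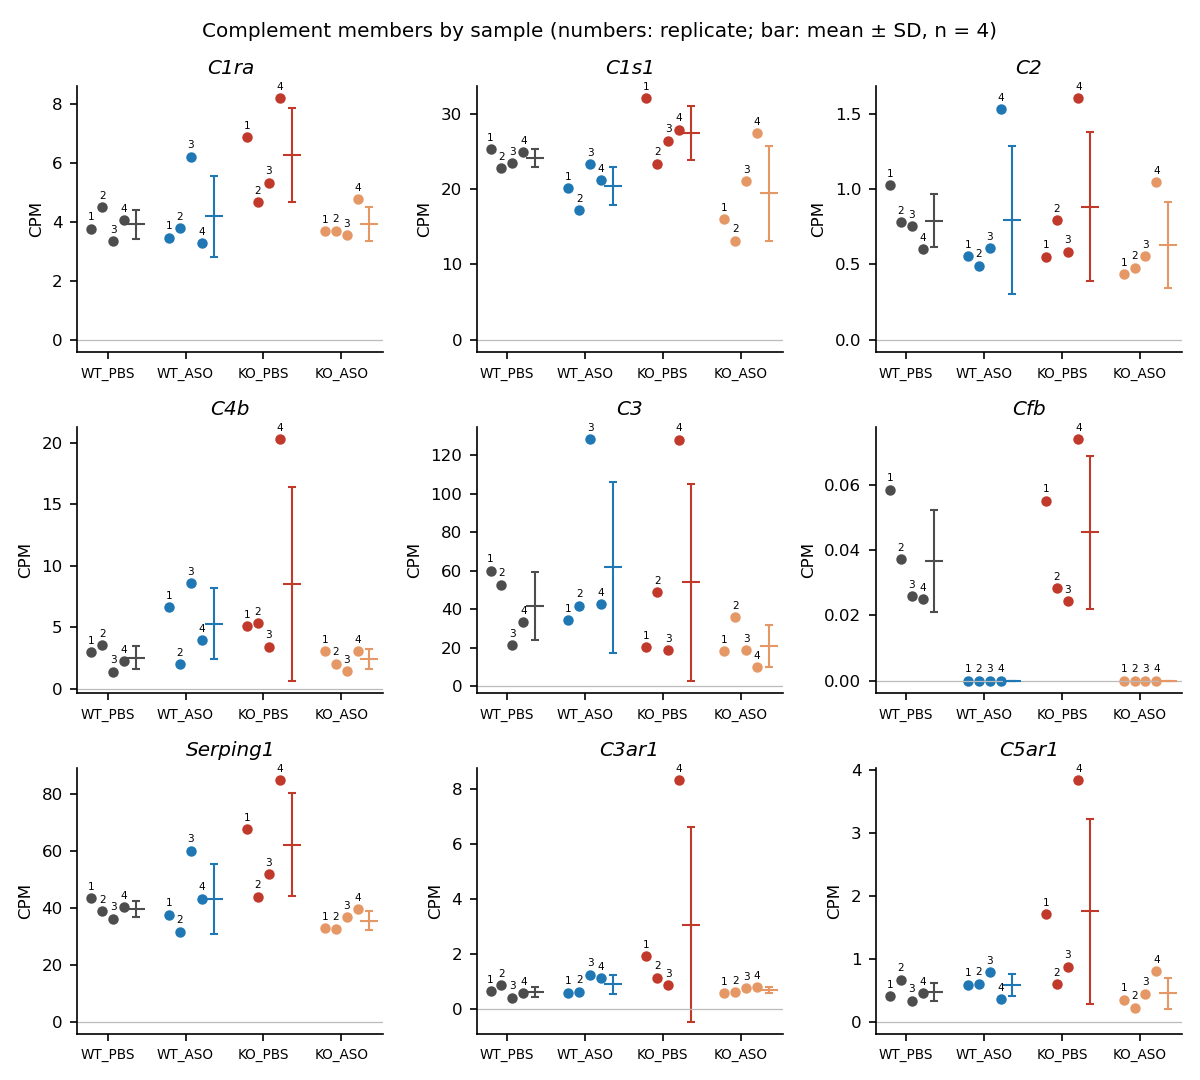
Expression of the 9 members in CPM (vertical axes) in each mouse, by group, with the mean and SD of 4 mice as bars and the replicate number beside each point. KO_PBS 4 lies far above its group for C3ar1 (8.31 CPM), C4b (20.3 CPM) and C3 (128 CPM), and WT_ASO 3 lies above its group for C3.

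C1r, the protease that cuts and activates C1s within the C1 complex, is encoded by C1ra (ENSMUSG00000055172, chr6:124512405-124523443, plus strand). C1ra was measured at 3.77, 4.51, 3.35 and 4.06 CPM in the WT_PBS mice and at 6.89, 4.67, 5.34 and 8.21 CPM in the KO_PBS mice. The groups did not overlap, and KO_PBS 2 came closest to the controls. The log2 fold change was 0.68 ± 0.21 (SE), with an adjusted P of 0.0421 and an exact two-sided permutation P of 0.0286, the smallest that 4 mice against 4 can give. KO_ASO mice were at 3.69, 3.71, 3.56 and 4.77 CPM, within the WT_PBS range but for the last, which was slightly above it. WT_ASO mice were at 3.47, 3.79, 6.22 and 3.28 CPM, where the third mouse was the highest and the fourth fell just below the WT_PBS range. KO_ASO against KO_PBS gave -0.68 ± 0.21 with an adjusted P of 0.0858 (-0.53 without KO_PBS 4), and WT_ASO against WT_PBS gave 0.10 ± 0.21. The genotype call was lost without KO_PBS 4 (log2 fold change 0.53, adjusted P of 0.125), without KO_PBS 1 (0.114), and without any WT_PBS mouse (0.0824, 0.0582, 0.105 and 0.0859 for mice 1 to 4). It was also lost in an edgeR fit with replicate number as a block (adjusted P of 0.0539).

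About 50.8% of the 50-base stretches of C1ra also occur in another gene, mainly its copy C1rb (48.0%), so reads may be divided between them. C1rb was listed at 0 reads in 13 libraries and at 24, 7 and 15 reads in KO_PBS 4, KO_ASO 1 and KO_ASO 2. The copy of C1s1, C1s2, held 32, 19 and 34 reads in those same 3 libraries and 0 to 5 in the others. Both copies were too low to be tested, and the part of these reads in the values of C1ra and C1s1 was not tested.

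C1s1 (ENSMUSG00000038521, chr6:124530345-124542359, minus strand) encodes C1s, the protease that cleaves C4 and C2. It stood at 25.3, 22.8, 23.4 and 24.9 CPM in WT_PBS and at 32.1, 23.4, 26.4 and 27.9 CPM in KO_PBS, and the groups overlapped. Their log2 fold change was 0.19 ± 0.17 (95% confidence interval -0.17 to 0.55, adjusted P of 0.518), and it was 0.19 without KO_PBS 4. KO_ASO mice were at 16.02, 13.2, 21.1 and 27.5 CPM, so that mice 1 and 2 were the lowest of all 16 but the fourth lay within the KO_PBS range. KO_ASO against KO_PBS gave -0.50 ± 0.17, with an adjusted P of 0.122 that became 0.0127 without KO_ASO 4, and without KO_PBS 4 the value was -0.50. Limma-voom called this difference (-0.59, adjusted P of 0.0232). The WT_ASO mice ranged from 17.2 to 23.3 CPM. KO_ASO 1 and 2 also had the lowest summed fibroblast markers of their group, at 736 and 776 CPM against 1891 and 2146 in the other mice of that group. Fibroblast markers' part in the C1s1 values was not tested. C1s1 shares 21.9% of its 50-base stretches with C1s2, and 18.4% of its exon bases lie opposite the antisense gene Gm16567, which averaged 0.438 reads.

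C2 (ENSMUSG00000024371, chr17:34862604-34898265, minus strand) encodes the protease subunit of the classical convertase. It was low in every mouse, at 0.602 to 1.02 CPM in WT_PBS, 0.492 to 1.53 in WT_ASO, 0.551 to 1.603 in KO_PBS and 0.434 to 1.05 in KO_ASO. All 4 groups overlapped. KO_PBS against WT_PBS gave 0.17 ± 0.42 (interval -0.71 to 1.05, adjusted P of 0.834) and became -0.29 without KO_PBS 4. Against KO_PBS, KO_ASO gave -0.50 ± 0.43 (adjusted P of 0.608), and without KO_PBS 4 it gave -0.055 (adjusted P of 0.970). The gene Gm20547, listed at 0 reads, covers 42.8% of the exon bases of C2 on the same strand, so reads that fit both genes may have been left uncounted.

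C4b (ENSMUSG00000073418, chr17:34728380-34743882, minus strand) encodes C4, which attaches to targets after cleavage by C1s. It stood at 2.98, 3.54, 1.37 and 2.23 CPM in WT_PBS and at 5.07, 5.33, 3.41 and 20.3 CPM in KO_PBS. KO_PBS 4 was far above the other mice, and KO_PBS 3 fell below WT_PBS 2. This gave a log2 fold change of 1.77 ± 0.55, with an adjusted P of 0.0495 and an exact two-sided permutation P of 0.0571. Without KO_PBS 4 it was 0.88 with an adjusted P of 0.208. The call was also lost without KO_PBS 1 (0.0635), without KO_PBS 2 (0.0511), and without WT_PBS 1, 2, 3 or 4 (0.0781, 0.0716, 0.123 and 0.121). Limma-voom (adjusted P of 0.101) did not call it, nor did edgeR with no filter (0.142), a replicate block (0.0960) or the compared groups alone (0.0565). Its call therefore sat at the threshold and was lost without any 1 of 7 of the 8 mice compared.

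The KO_ASO mice had 3.07, 2.05, 1.42 and 3.07 CPM of C4b, all below the lowest KO_PBS mouse. Against KO_PBS they gave -1.83 ± 0.56, with an adjusted P of 0.0853 and an exact two-sided permutation P of 0.0286. Without KO_PBS 4 the difference was -0.94, with an adjusted P of 0.286. WT_ASO mice were at 6.61, 1.996, 8.56 and 3.95 CPM, and 3 of these 4 exceeded every WT_PBS mouse. WT_ASO against WT_PBS gave 1.07 ± 0.56 (adjusted P of 0.802), the largest difference of any member between the wild-type groups. C4b shares 34.6% of its 50-base stretches with its copy C4a, which was 2.14-fold higher in KO_PBS than in WT_PBS with an adjusted P of 0.210.

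C3 (ENSMUSG00000024164, chr17:57203970-57228136, minus strand) encodes the protein on which all complement pathways meet. It varied widely within groups, at 60.0, 52.8, 21.4 and 33.3 CPM in WT_PBS and 20.3, 49.0, 18.8 and 128 CPM in KO_PBS. Only KO_PBS 4 exceeded the controls, and 2 KO_PBS mice lay below all of them. The log2 fold change was 0.37 ± 0.63 (interval -0.98 to 1.73, adjusted P of 0.757) and turned to -0.50 without KO_PBS 4. The WT_ASO mice stood at 34.3, 41.8, 128 and 42.5 CPM, with the third mouse alone above the rest. Among KO_ASO mice C3 was at 18.1, 35.8, 18.9 and 9.93 CPM, a range that overlapped KO_PBS. KO_ASO against KO_PBS gave -1.39 ± 0.65 (adjusted P of 0.284), and without KO_PBS 4 it was -0.51.

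Cfb (ENSMUSG00000090231, chr17:34856374-34862518, minus strand) encodes factor B, the protease of the alternative pathway. It was nearly undetected, with 2, 1, 1 and 1 reads in WT_PBS and 2, 1, 1 and 3 in KO_PBS, and 0 in all 8 oligonucleotide-treated mice. It was therefore not tested, and it is the 1 member of 9 that did not pass the filter on low counts. The 8 saline libraries held 12 Cfb reads among 284895818, and the 8 oligonucleotide libraries held 0 among 267463745. Each library was at or below the floor of 3 reads, so no fold is given. Gm20547 covers 79.5% of the exon bases of Cfb on the same strand, so reads that fit both genes may have been left uncounted, which was not tested. C2, Cfb and C4b lie close together on chromosome 17 in the major histocompatibility complex.

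Serping1 (ENSMUSG00000023224, chr2:84765387-84775444, minus strand) encodes C1 inhibitor, the serpin that inactivates C1r and C1s. WT_PBS mice had 43.3, 38.8, 36.2 and 40.2 CPM, and KO_PBS mice had 67.8, 44.0, 52.0 and 84.9 CPM. The groups did not overlap, although KO_PBS 2 was close to WT_PBS 1. Serping1 had a log2 fold change of 0.65 ± 0.19 (adjusted P of 0.0367, exact two-sided permutation P of 0.0286). Without KO_PBS 4 it was 0.47 with an adjusted P of 0.108. The call was also lost without KO_PBS 1 (0.0986) and without WT_PBS 1, 2, 3 or 4 (0.0515, 0.0826, 0.0877 and 0.0804). The direction held each time, at log2 fold changes of 0.47 to 0.78.

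The KO_ASO mice had 33.0, 32.7, 36.7 and 39.6 CPM of Serping1, all below every KO_PBS mouse. KO_ASO against KO_PBS gave -0.81 ± 0.19, with an adjusted P of 0.0313 and an exact two-sided permutation P of 0.0286. This call was lost without KO_PBS 1 (0.0882), without KO_PBS 4 (0.0763) and without KO_ASO 1, 2 or 3 (0.0971, 0.0757 and 0.0672). It was also lost with no filter on low counts (0.0651) and with the compared groups alone (0.0563). WT_ASO mice had 37.7, 31.7, 60.1 and 43.2 CPM and overlapped WT_PBS, with a log2 fold change of 0.12 ± 0.19.

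C3ar1 (ENSMUSG00000040552, chr6:122847138-122856161, minus strand) encodes the receptor of C3a. It was at 0.643, 0.857, 0.415 and 0.577 CPM in WT_PBS and at 1.93, 1.13, 0.878 and 8.31 CPM in KO_PBS. All KO_PBS mice were above all WT_PBS mice, with KO_PBS 3 only just so and KO_PBS 4 at 6.33 times the mean of the other 3. C3ar1 had a log2 fold change of 2.31 ± 0.58 (adjusted P of 0.0173, exact two-sided permutation P of 0.0286). Without KO_PBS 4 the log2 fold change was 1.09 and the adjusted P was 0.0499. The call was lost without WT_PBS 3 (0.0525) and without WT_PBS 4 (0.0539).

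In KO_ASO the same receptor was at 0.570, 0.607, 0.761 and 0.801 CPM, below every KO_PBS mouse and within the WT_PBS range. Against KO_PBS this gave -2.17 ± 0.58, with an adjusted P of 0.0513 and an exact two-sided permutation P of 0.0286. Leaving out KO_PBS 2 or KO_PBS 3 brought the adjusted P to 0.0287 or 0.0194, and leaving out KO_PBS 4 brought the log2 fold change to -0.95. WT_ASO mice were at 0.589, 0.637, 1.24 and 1.11 CPM, where the last 2 exceeded WT_PBS, and the log2 fold change was 0.54 ± 0.61.

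C5ar1 (ENSMUSG00000049130, chr7:16246743-16259540, minus strand) encodes the receptor of C5a, which draws in neutrophils and macrophages. WT_PBS mice had 0.409, 0.670, 0.337 and 0.451 CPM, and KO_PBS mice had 1.71, 0.595, 0.878 and 3.85 CPM. KO_PBS 2 lay below WT_PBS 2, and the other KO_PBS mice lay above all controls. The log2 fold change was 1.93 ± 0.51 (adjusted P of 0.0207, exact two-sided permutation P of 0.0571). Without KO_PBS 4 it was 1.20 with an adjusted P of 0.0825, and without WT_PBS 3 or WT_PBS 4 the adjusted P was 0.0590 each time.

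KO_ASO mice had 0.353, 0.224, 0.450 and 0.801 CPM of C5ar1, and only KO_ASO 4 exceeded KO_PBS 2. KO_ASO against KO_PBS gave -1.95 ± 0.51, with an adjusted P of 0.0451 and an exact two-sided permutation P of 0.0571. The call was lost without KO_PBS 1 (0.101), without KO_PBS 4 (log2 fold change -1.23, adjusted P of 0.150) and without KO_ASO 1, 2 or 3 (0.143, 0.117 and 0.104). WT_ASO mice had 0.589, 0.608, 0.789 and 0.361 CPM, with a log2 fold change of 0.34 ± 0.54 against WT_PBS.

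The promoters of 3 of the 5 members called higher in KO_PBS are shown. RefSeq's table for GRCm38.p6 matched 5 of the 9 members and among the called ones C1ra, C3ar1 and C5ar1. Each sequence runs from 250 bases before to 50 bases after the annotated start, 5′ to 3′, at chr6:124512371-124512670 (plus strand), chr6:122856108-122856407 (minus strand) and chr7:16259289-16259588 (minus strand). Capitals mark matches on either strand to the motifs searched, in C1ra overlapping none of each other.
C1ra: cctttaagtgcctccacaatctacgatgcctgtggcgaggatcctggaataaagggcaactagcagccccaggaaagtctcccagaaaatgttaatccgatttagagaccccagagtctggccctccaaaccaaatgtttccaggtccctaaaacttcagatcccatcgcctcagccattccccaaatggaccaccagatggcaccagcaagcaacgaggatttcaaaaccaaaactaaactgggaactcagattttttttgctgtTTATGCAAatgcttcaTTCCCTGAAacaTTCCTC
C3ar1: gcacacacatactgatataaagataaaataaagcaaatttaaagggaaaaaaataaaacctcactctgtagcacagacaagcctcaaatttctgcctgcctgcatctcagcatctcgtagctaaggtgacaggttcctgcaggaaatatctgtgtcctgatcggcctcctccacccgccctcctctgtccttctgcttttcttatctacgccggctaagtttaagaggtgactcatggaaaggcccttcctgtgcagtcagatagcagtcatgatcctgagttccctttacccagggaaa
C5ar1: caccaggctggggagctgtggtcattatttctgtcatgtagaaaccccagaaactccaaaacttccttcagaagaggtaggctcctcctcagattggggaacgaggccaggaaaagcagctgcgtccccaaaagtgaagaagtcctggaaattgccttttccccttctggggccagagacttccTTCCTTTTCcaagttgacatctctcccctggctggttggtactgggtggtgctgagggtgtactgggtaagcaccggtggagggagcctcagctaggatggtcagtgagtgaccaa
The motifs were the ETS core GAGGAA, the STAT motif TTCNNNGAA, the interferon response core GAAANNGAA and the C/EBP motif TTGCNNAA, held by 28.3%, 8.30%, 8.56% and 10.8% of the 32851 promoters in the table. C1ra held 3 of them (ETS, STAT and C/EBP), all downstream of the start, and C5ar1 held 1 interferon response core at -66 to -58. C3ar1 held none of these letters in its window. C1s1 and C3, which were matched but not called, each held a C/EBP match, at -242 to -235 and at -45 to -38. Each match is a description of the sequence and not a measured site.

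**Figure D2:**
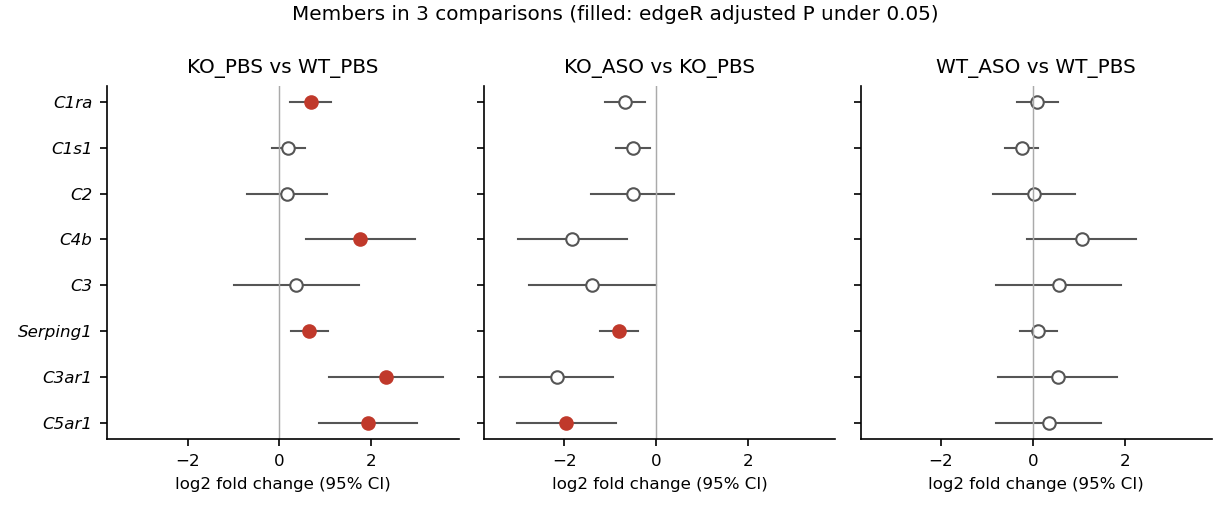
Log2 fold changes (horizontal axes) of the 8 tested members with 95% confidence intervals in 3 comparisons, with filled points where the edgeR adjusted P was under 0.05. In KO_PBS against WT_PBS 5 points are filled, in KO_ASO against KO_PBS 2 are filled on the negative side, and in WT_ASO against WT_PBS none is.

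In KO_ASO against KO_PBS, which sets the oligonucleotide against saline in Bin1mck-/- muscle with no control oligonucleotide among the 16 samples, all 8 tested members had negative log2 fold changes and 2, Serping1 and C5ar1, were called lower. Of all genes tested, 2.83% were called lower and 3.64% in either direction. The members' median was -1.10 against 0.01 for all genes. In 3 of the 8 members (C4b, Serping1 and C3ar1) every KO_ASO mouse lay below every KO_PBS mouse, which held for 6.34% of all genes. This comparison and KO_PBS against WT_PBS share the KO_PBS mice, KO_PBS 4 included. Without KO_PBS 4 the count of members called by edgeR was 0 (6 at an unadjusted P under 0.05, and 2.14% of all genes called), with the log2 fold change of C3ar1 at -0.95 and of Serping1 at -0.63, and the members' median was -0.58. The edgeR count was also 0 without KO_PBS 1 and without KO_ASO 1, 2 or 3 (6 or 7 at an unadjusted P under 0.05, and 1.37% to 2.15% of all genes called). It was 3 without KO_PBS 2 or KO_PBS 3, with C3ar1 added (3.30% and 3.63%), and 3 without KO_ASO 4, with C1s1 added (5.47%). With no filter on low counts (1.49% of all genes called) and with the compared groups alone (2.09%) the edgeR count was 0.

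In WT_ASO against WT_PBS, 0 members were called by edgeR, by DESeq2 or by limma-voom, and 0 had an unadjusted P under 0.05 in any of these tools. Among all genes 0.00668% were called. The members' median log2 fold change was 0.23. WT_ASO 3 held the highest value of its group for 7 of the 8 members, with C3 at 3.25 times and C4b at 2.05 times the mean of the other 3 mice. Its macrophage markers summed to 141 CPM against 103 to 122, its neutrophil markers to 3.16 against 0.458 to 0.667 and its red blood cell markers to 256 against 43.2 to 114. The part of these cells in the members' values was not tested. Without it the values of C1ra, C3 and Serping1 turned to -0.16, -0.081 and -0.078.

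Whether the oligonucleotide acted differently in the 2 genotypes was tested by the interaction of genotype and treatment. All 8 members had negative interaction values, from -0.26 for C1s1 to -2.89 for C4b, and edgeR called 0 of them at an adjusted P under 0.05, while 6 had an unadjusted P under 0.05. DESeq2 called 3 (C4b, Serping1 and C3ar1) and limma-voom called 0. Among all genes edgeR called 0.575% and DESeq2 2.68%. The value for C4b was -2.89 ± 0.79 (adjusted P of 0.127), for C3ar1 -2.71 ± 0.84 (0.173), for C5ar1 -2.30 ± 0.74 (0.189) and for Serping1 -0.93 ± 0.27 (0.146). Without KO_PBS 4 these values were -2.003 for C4b, -1.48 for C3ar1, -1.57 for C5ar1 and -0.75 for Serping1. Leaving out KO_PBS 4 and WT_ASO 3 together gave -1.67 for C4b, -1.28 for C3ar1, -1.39 for C5ar1 and -0.54 for Serping1. In that fit 4 members had an unadjusted edgeR P under 0.05. A difference of the oligonucleotide's effect between genotypes was therefore not shown by the edgeR test.

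KO_ASO mice were also set against the wild-type groups. Against WT_PBS, edgeR, DESeq2 and limma-voom each called 0 members, and edgeR gave 0 members with an unadjusted P under 0.05, where 0.0401% of all genes were called. The mean CPM of KO_ASO was 100.3% of WT_PBS for C1ra, 94.8% for C4b, 89.6% for Serping1, 110% for C3ar1 and 97.8% for C5ar1, and it was 80.7% for C1s1, 79.5% for C2 and 49.4% for C3. The intervals were wide for the receptors, from -1.18 to 1.48 on the log2 scale for C3ar1 and from -1.20 to 1.14 for C5ar1. A P above the threshold does not show that these levels were equal. Against WT_ASO, 0 members were called by any of the 3 tools (0.0735% of all genes by edgeR), and C3 alone had an unadjusted edgeR P under 0.05, with a log2 fold change of -1.58 and an adjusted P of 0.281. Without WT_ASO 3 the value of C3 was -0.93, and 0 members had an unadjusted P under 0.05.

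**Figure D3:**
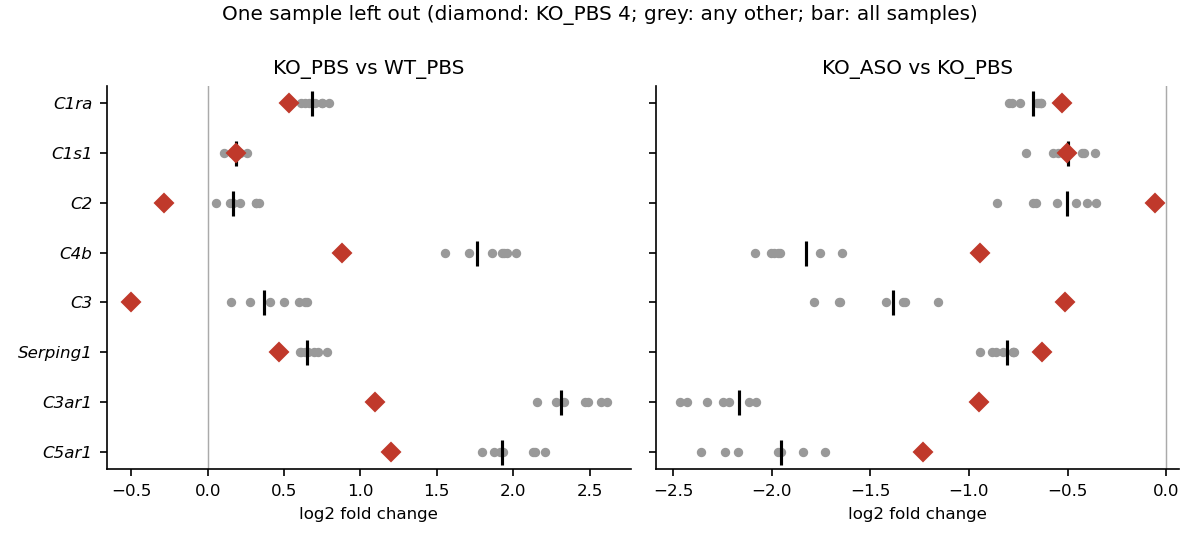
Log2 fold changes (horizontal axes) of the 8 tested members recomputed with 1 sample left out at a time, with a diamond for KO_PBS 4 and a bar for the value over all samples. Without KO_PBS 4 the genotype value of C3ar1 is 1.09 and that of C3 is -0.50.

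Leaving out KO_PBS 4 shortened the differences of the called members, which the plot of values with 1 sample left out shows. Relative to the mean of the other 3 KO_PBS mice, this library had 6.33 times the C3ar1, 4.41 times the C4b, 4.36 times the C3, 3.63 times the C5ar1 and 2.49 times the C2. For Serping1, C1ra and C1s1 the ratios were 1.56, 1.46 and 1.02. The other 3 KO_PBS mice also lay above all WT_PBS mice for C1ra, Serping1 and C3ar1. This follows from the separation of all KO_PBS mice, which held for 10.5% of all genes, and is not a further check.

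The members were set beside the markers of other cell types, since muscle holds several cell types besides fibres. Of 15 macrophage markers 12 were called higher in KO_PBS than in WT_PBS, and 7 were called lower in KO_ASO than in KO_PBS. Of all genes tested, 7.43% were called higher and 5.12% lower in the first comparison. In the second, 2.83% were called lower and 3.64% in either direction. Without KO_PBS 4 the macrophage marker counts were 8 and 4, where 10% and 2.14% of all genes were called in either direction. The macrophage markers' summed level was 90.1 ± 20.8 CPM (SD, n = 4) in WT_PBS, 120 ± 15.6 in WT_ASO, 229 ± 102 in KO_PBS and 104 ± 11.7 in KO_ASO. It ranged from 72.1 to 113 CPM in WT_PBS and from 152 to 377 CPM in KO_PBS, so those groups did not overlap with or without KO_PBS 4. Fibroblast markers gave 5 of 12 higher and then 2 of 12 lower (2 and 0 without KO_PBS 4), with sums of 1453, 1449, 2247 and 1387 CPM in WT_PBS, WT_ASO, KO_PBS and KO_ASO. Muscle fibre markers gave 2 of 7 lower and endothelial markers 1 of 8 lower in KO_PBS against WT_PBS, with the same counts without KO_PBS 4. In KO_ASO against KO_PBS 1 of 7 adipocyte markers was called higher, and 0 without KO_PBS 4. The adipocyte median was 0.74 in KO_PBS against WT_PBS, 0.22 in KO_ASO against KO_PBS and 1.23 in WT_ASO against WT_PBS. Mean Adipoq, Plin1 and Cidec in KO_PBS were 295%, 268% and 244% of WT_PBS. In KO_ASO they were 57.0%, 68.9% and 59.4% of KO_PBS. Fabp4, Plin4 and Car3 went the other way in both comparisons. No tested marker of neutrophils, lymphocytes, red blood cells, Schwann cells or hepatocytes was called in either comparison. Only 3 of 8 neutrophil, 1 of 8 lymphocyte and 2 of 6 hepatocyte markers could be tested. The tested neutrophil markers had median log2 fold changes of 1.57 in KO_PBS against WT_PBS and -1.76 in KO_ASO against KO_PBS. Without KO_PBS 4 these medians were 0.32 and -0.42, and no lymphocyte marker could be tested. The part of macrophages, fibroblasts or adipocytes in the members' differences was not tested.

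**Figure D4:**
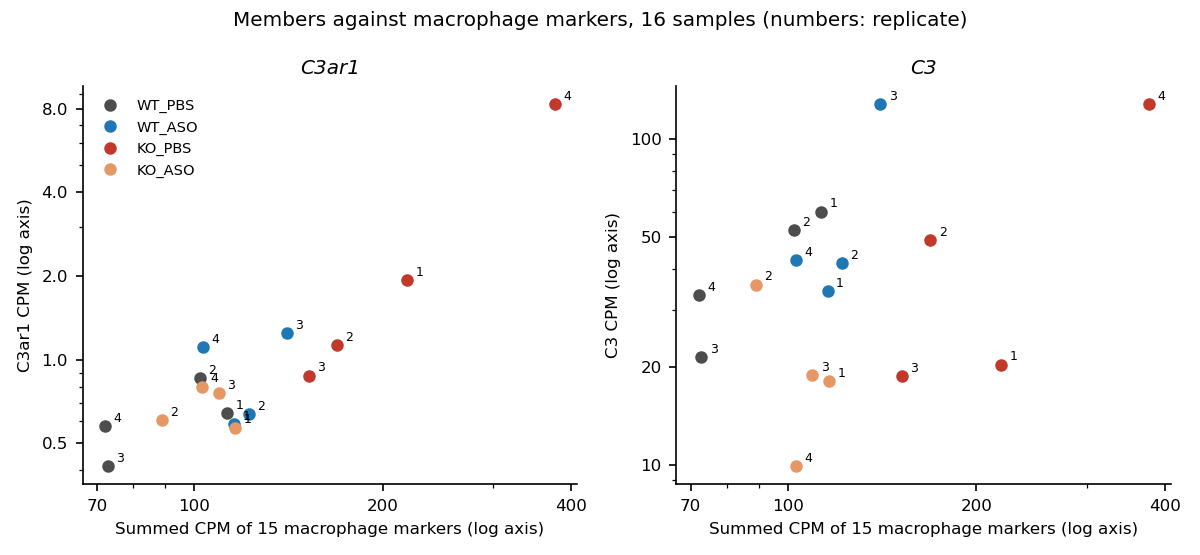
CPM of C3ar1 and C3 (vertical log axes) against the summed CPM of 15 macrophage markers (horizontal log axes) in the 16 samples, marked by group and numbered by replicate. KO_PBS 4 has the highest macrophage sum (377 CPM), and the other KO_PBS mice lie at 152 to 219 CPM.

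For each of the 5 members called higher in KO_PBS, the 3 genes with the most similar log2 CPM across the 16 samples were found by the root mean square difference after centring each gene. Nearest to C3ar1 were Ctss (0.24), Cd84 (0.24) and Adgre1 (0.31), where Ctss encodes a lysosomal protease of antigen-presenting cells and Adgre1 the macrophage antigen F4/80. Nearest to C5ar1 were Pf4 (0.30), Cd163 (0.37) and C1qb (0.37), which encode a chemokine, a haemoglobin scavenger receptor and a C1q chain. For the secreted members the nearest genes were others. C1ra lay nearest to Dpep1 (0.14), Serping1 (0.17) and Zfp142 (0.18), and Serping1 lay nearest to Ecm1 (0.13), C1ra (0.17) and Htra3 (0.18). C4b had no gene as close, with Ifi27l2a at 0.49, Fcna at 0.50 and Scd1 at 0.51. Without KO_PBS 4 the nearest to C3ar1 were Cd84, Adgre1 and C1qb, to C5ar1 Pf4, Cd163 and Ifi205, and to C4b Sdk1, Efemp1 and Dpp4. For C1ra they were Dpep1, Serping1 and Lgals1, and for Serping1 they were Ecm1, Pcsk6 and Lrp1, with C1ra falling to rank 11.

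Of 43 other complement genes listed, 42 were in the table and 26 could be tested. Between KO_PBS and WT_PBS 7 were called higher and 1 lower, with a median log2 fold change of 0.50. Of all genes, 7.43% were called higher and 5.12% lower, with a median of -0.01. The C1q chains C1qa, C1qb and C1qc, made largely by macrophages, were higher by 1.68, 1.82 and 1.94. Also higher were Cfp (properdin, which stabilises the alternative convertase) by 1.01, the lectin Fcna by 2.13, and the complement receptor 3 subunits Itgam and Itgb2 by 1.68 and 1.46. Lower was Cr1l, a regulator on cell surfaces, by -0.29. Between KO_ASO and KO_PBS 5 were lower and the median was -0.47, where 2.83% of all genes were called lower and their median was 0.01. The 5 genes were C1qa (-1.55), C1qb (-1.67), C1qc (-1.53), Cfp (-1.06) and Itgb2 (-1.80). Without KO_PBS 4, edgeR called 4 higher (C1qa, C1qb, C1qc and Cfp) and 1 lower (Cr1l) in the genotype comparison, with a median of 0.37, and 0 in the treatment comparison (10 at an unadjusted P under 0.05), with a median of -0.21. Of all genes, 10% and 2.14% were then called in either direction. The C1q chains were then 1.43, 1.32 and 1.60 higher in KO_PBS and gave -1.30, -1.17 and -1.20 in KO_ASO against KO_PBS. Fcna, Itgam, Itgb2, Cfp and Cr1l gave 1.63, 1.27, 0.81, 0.74 and -0.30 in the genotype comparison, and Itgb2 and Cfp gave -1.15 and -0.79 in the treatment comparison.

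**Figure D5:**
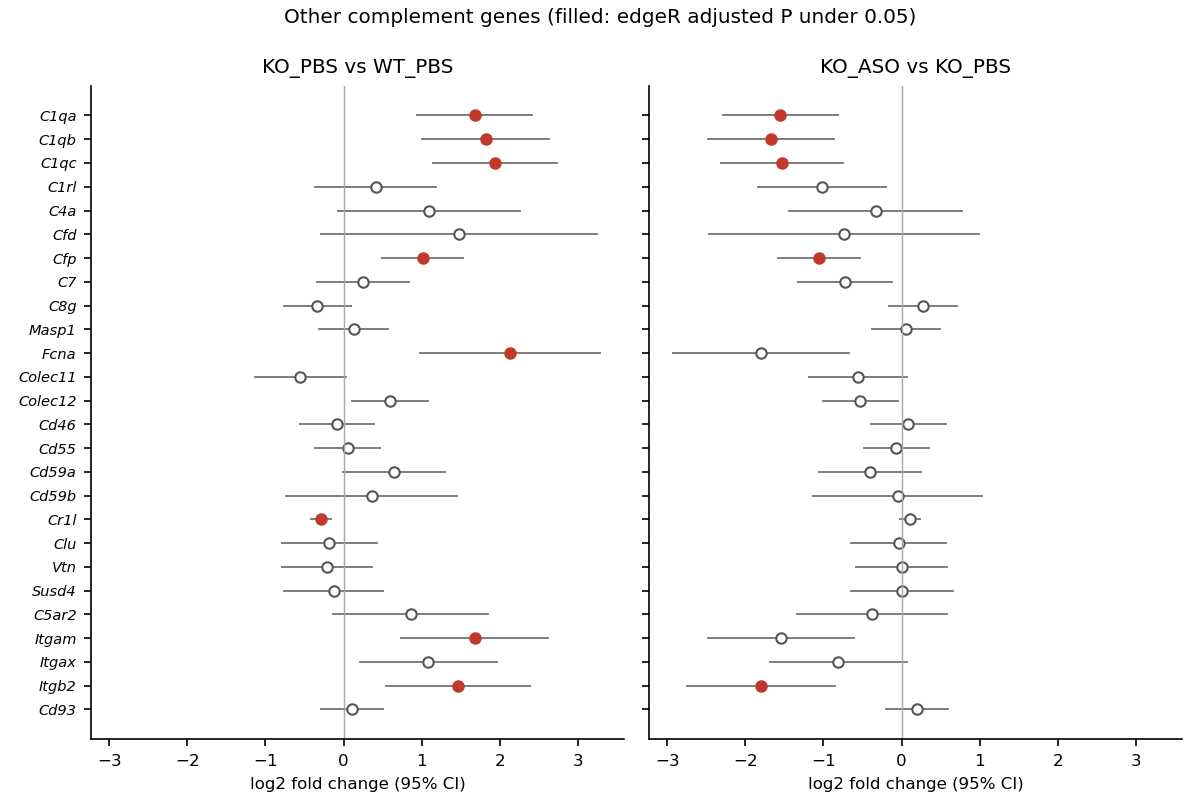
Log2 fold changes (horizontal axes) with 95% confidence intervals of the other complement genes, with filled points where the edgeR adjusted P was under 0.05. The C1q chains are filled in both comparisons, at 1.68 to 1.94 in KO_PBS against WT_PBS and at -1.67 to -1.53 in KO_ASO against KO_PBS.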

How the data were processed

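RNA from whole tibialis anterior was extracted with TRI Reagent and made into stranded mRNA libraries. The deposited table holds raw read counts per Ensembl gene for 16 samples. HTSeq 0.6.1p1, STAR 2.5.3a, Bowtie2 2.2.8 and cutadapt 1.10 are listed in the submitters' processing notes. The sources used here do not give their roles, the strand setting or the Ensembl release. Counts of genes that share sequence can therefore be split or lost.

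All 29730 identifiers matched GENCODE M21 (GRCm38). Genes passing edgeR's filterByExpr by group (14960, with 14770 taken out) were normalised by TMM and fitted with the robust quasi-likelihood test (edgeR 4.0.16, R 4.3.3) over all 16 samples, with Benjamini-Hochberg adjustment over all genes tested and a threshold of 0.05. CPM is the count per 1000000 reads of the TMM-scaled library, RPKM divides CPM by exon length, and log2 CPM used a prior count of 2. SEs are of the log2 fold change. The common biological coefficient of variation was 18.7%. Exact permutation tests were two-sided and used log2 CPM. No 2 libraries of a group agreed within sampling noise (lowest mean chi-square 22.2 per gene). Alternatives were DESeq2 1.42.0, limma-voom (limma 3.58.1), other scalings, no filter, a replicate block and leaving out each sample. The fit was also run on simulated data, whose outcome is not reported here.

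The members, the other complement genes and the marker lists were chosen with earlier results of these data known. All members are named, and of the other complement genes those called in KO_PBS against WT_PBS or KO_ASO against KO_PBS, plus C4a, C1rb and C1s2, which resemble members. An item of the complement list is not reported here and was left out of its counts. The Cfb pattern, the pair of high libraries and the copies' read counts were singled out after their values were seen.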

Additional observations from a re-analysis of the deposited data

Results flagged for a closer look

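Among 34 groups of 4 mice (9 members in 4 groups, leaving out the 2 in which Cfb was 0 throughout), 5 held a sample whose gap to its nearest neighbour exceeded Dixon's 95% limit for the group's range. Chance alone gives about 1 in 20 for a single group, and the groups of different members share the same libraries. KO_PBS 4 was far above its group for C4b at 20.3 CPM and for C3ar1 at 8.31 CPM. WT_ASO 3 was far above its group for C3 at 128 CPM. WT_ASO 4 was far above its group for C2 at 1.53 CPM. KO_ASO 4 was far above its group for C1ra at 4.77 CPM. No explanation of these values was tested.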

How the results depend on the processing

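The calls lie close to the threshold, and which members are called depends on the fit. In KO_PBS against WT_PBS the 5 members called became 1 with limma-voom and quality weights (18.0% of all genes called), 2 with no filter on low counts (4.92%), 3 with a replicate block (Serping1, C3ar1 and C5ar1, 15.5%) and 3 when only the compared groups were fitted (14.3%). In KO_ASO against KO_PBS the 2 members called became 5 with DESeq2 (which called 7.07% of all genes), 4 with library totals alone (5.08%), 0 with no filter (1.49%) and 0 when only the compared groups were fitted (2.09%). There the replicate block called 3 (Serping1, C5ar1 and C1s1, 5.03%) and limma-voom called 2 (Serping1 and C1s1, not C5ar1, 7.95%). The 5 other complement genes called became 1 with no filter and 0 with the compared groups only. For the interaction, DESeq2 called 3 members and 7 other complement genes (2.68% of all genes) where edgeR called 0 of each (0.575%). In KO_ASO against WT_ASO DESeq2 called 1 other complement gene (3.2% of all genes) where edgeR called 0 (0.0735%). Leaving out 1 mouse at a time gave 0 to 5 members and 5 to 9 other complement genes in KO_PBS against WT_PBS, 0 to 3 members and 0 to 6 other complement genes in KO_ASO against KO_PBS, and 0 to 1 other complement genes for the interaction. The cause of these changes was not tested.

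Signs that turned belonged to values that no edgeR test called. With limma-voom, C2 and C3 in KO_PBS against WT_PBS became -0.0083 and -0.15, C2 in WT_ASO against WT_PBS became -0.10 and C1ra in KO_ASO against WT_PBS became -0.071. With library totals alone, C2 in WT_ASO against WT_PBS became -0.014, C5ar1 in KO_ASO against WT_PBS 0.034, and C1ra and C1s1 in KO_ASO against WT_ASO 0.027 and 0.033. With no filter C1ra in KO_ASO against WT_PBS became -0.0043. With the replicate block C2 in WT_ASO against WT_PBS became -0.15. The mice share only a replicate number between groups: the 24 same-numbered pairs correlated at r of -0.078 to 0.44, with 11 over 0.1, and at a mean of 0.12 against -0.039 for pairs of different numbers. With 1 mouse left out, the members whose sign turned ranged as follows on the log2 scale. KO_PBS against WT_PBS gave C2 -0.29 to 0.33 and C3 -0.50 to 0.65. WT_ASO against WT_PBS gave C1ra -0.16 to 0.20, C2 -0.51 to 0.20, C3 -0.081 to 0.79 and Serping1 -0.078 to 0.25. The interaction gave C2 -0.88 to 0.0077. KO_ASO against WT_PBS gave C1ra -0.098 to 0.077, C4b -0.27 to 0.14, C3ar1 -0.0074 to 0.32 and C5ar1 -0.43 to 0.19. KO_ASO against WT_ASO gave C1ra -0.20 to 0.16, C1s1 -0.29 to 0.075 and C2 -0.71 to 0.17. Library totals alone moved the median of all genes in KO_PBS against WT_PBS to 0.14, which raises every log2 fold change there by about that much.

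Cfb had too few reads to be compared. Among the others, C2, C5ar1 and C3ar1 had fewer reads and larger SEs than C1s1, Serping1 and C1ra in KO_PBS against WT_PBS. C3 departed from that order, with an SE of 0.63 against 0.58 for the much lower C3ar1. The part of read number in the errors was not tested. The test is of spread between mice and does not separate cell types.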

Other observations

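Cfb was read in all 8 saline libraries, at 1 to 3 reads each, and in 0 of the 8 oligonucleotide libraries. Of the 29730 genes in the table it was the 1 gene with this pattern, and 0 genes had the reverse. This pattern was noticed after the values were seen, every library is at or below the floor of 3 reads, and no test was made of it.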
